A study of Mus musculus with 4 samples.

Results

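The splicing factors of the mouse blastocyst were described here in both assays of the series, ribosome-protected fragments (RPF) and mRNA. The genes were taken by name from the 20714 symbols listed in both assays: those starting with Hnrnp, Snrp, Sf3a, Sf3b or U2af, the numbered Srsf genes, Tra2a and Tra2b. This gave 58 genes, of which 21 were hnRNP, 13 SR (11 Srsf and both Tra2), 12 snRNP, 9 SF3 and 3 U2AF genes. The libraries were 2 RNA-seq and 2 Ribo-seq replicates of wild-type, untreated blastocysts. The embryos came from females 4 weeks of age, of strain C57BL/6J in the protocol and C57BL/6N in the strain label, mated with PWK/PhJ males. Embryos of 8 cells were taken and grown to blastocysts in culture, and the zona pellucida was removed. Whole embryos were used, so a level is a mean over the inner cell mass and the trophectoderm, and fewer expressing cells cannot be told apart from less RNA per cell. The labels do not say that replicates came from separate cultures, so every p-value measures the spread between these libraries, which may be technical.

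Splicing removes introns from pre-mRNA in the spliceosome, which is built from small nuclear ribonucleoproteins (snRNPs) on each intron. U1 snRNP binds the 5′ splice site, U2AF binds the pyrimidine tract and the 3′ splice site, and the SF3a and SF3b complexes hold U2 snRNP at the branch point. SR proteins bind exons and mostly favour their inclusion, while hnRNPs coat the nascent transcript and often repress exons. The embryonic genome is active well before the blastocyst stage, so these cells splice transcripts of their own.

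Values are FPKM, fragments scaled to the length of the gene model and to the mapped fragments of the library, which the authors computed over transcripts for mRNA and over coding sequences for RPF. Low RPF values fell on steps of whole fragments, which implied totals of 533531 and 484258 footprints in the 2 Ribo-seq replicates. A gene of the set had a median of 117 and 102 footprints in these replicates, and 117 footprints carry a counting error of 9.23%. Between replicates, the levels of the 58 genes had a Spearman correlation of 0.988 in RNA-seq and 0.972 in Ribo-seq, a description over genes, which are not replicates. All 10 blastocyst marker genes had an RPF level of at least 1 FPKM in both Ribo-seq libraries, with a summed level of 6088 to 6372 FPKM, and 7 of them had an mRNA level of at least 1 FPKM in both RNA-seq libraries. Oocyte markers summed to at most 1.92 FPKM in any library, with Zp1, Zp2, Bmp15, Nlrp5 and Oosp1 listed at 0 in all 4. Cumulus cell markers summed to at most 1.09 FPKM, with 4 of 5 at 0.

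The first comparison asks how the groups rank in each assay. The snRNP genes had the highest mRNA level, with a median of 152 and 189 FPKM in the RNA-seq replicates. The SF3 genes followed at 41.8 and 39.2, the SR genes at 31.8 and 34.6, and the hnRNP genes at 19.3 and 30.5 FPKM. All 8327 genes with a mean of at least 1 FPKM in both assays had medians of 7.98 and 8.07. In RPF, the snRNP genes were again highest, with a median of 627 and 586 FPKM in the Ribo-seq replicates. The hnRNP genes came next at 355 and 313, then the SR genes at 291 and 302 and the SF3 genes at 112 and 87.2 FPKM, beside 25.3 and 23.8 for all genes. The hnRNP genes thus had the lowest of these 4 medians in mRNA and the second in RPF, and the SF3 genes the second in mRNA and the lowest in RPF. The RPF order of hnRNP and SR genes rests on Srsf12, which was listed at 0 in all libraries. With replicate medians averaged, RPF was 334 FPKM for hnRNP and 296 for SR genes, and 353 for SR genes without Srsf12. Without the pseudogene row described below, the averaged hnRNP mRNA median was 32.6 FPKM, beside 33.2 for SR genes. Cufflinks raises the RPF level of short coding sequences, as described with the Sm genes. Per full coding length the RPF medians were 348 and 320 FPKM for snRNP and 301 and 247 for hnRNP genes. They were 270 and 269 for SR and 96.3 and 79.8 for SF3 genes. These medians were taken over 20 hnRNP and 12 SR genes, without the pseudogene row and Srsf12. The hnRNP and SR medians overlapped on this scale, as they also did as deposited once Srsf12 was left out. Among the 57 genes with a signal, 31 lay above the 90th percentile of all genes tested in RPF and 22 in mRNA. The snRNP group held 9 of the former and 10 of the latter, out of 12.

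**Figure D1:**
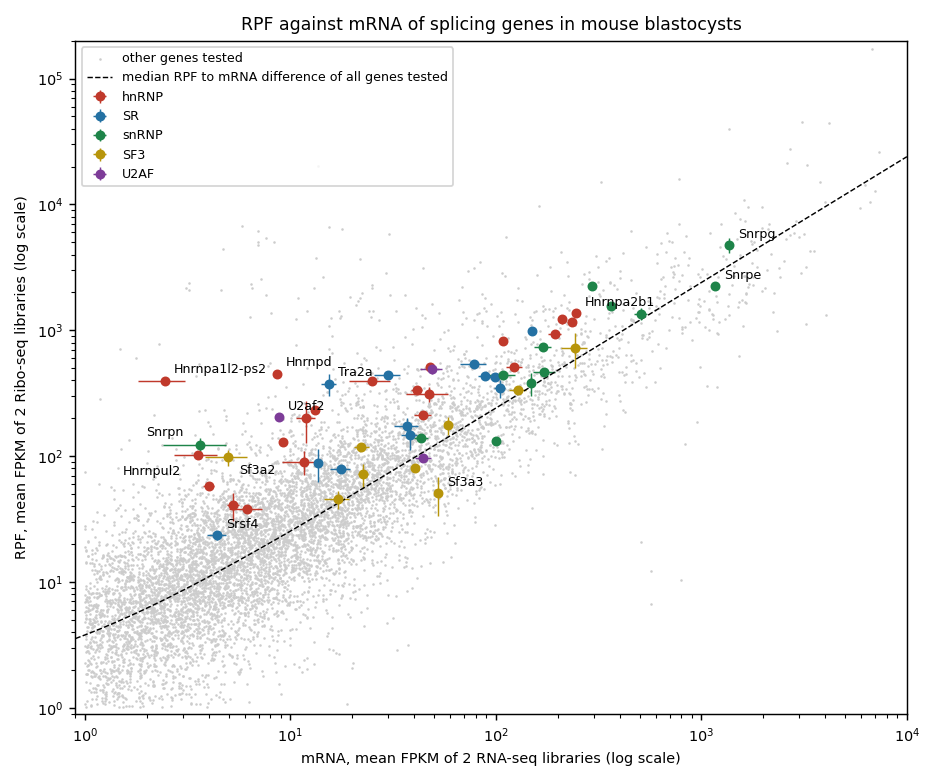
Mean RPF (y axis, FPKM, log scale) against mean mRNA (x axis, FPKM, log scale) of 57 splicing genes, with lines spanning the 2 libraries of each assay, over all 8327 genes tested in grey. The dashed line is the median difference of all genes; 52 of the 57 genes lie above it, and Hnrnpa1l2-ps2, Hnrnpd and Snrpn stand farthest above it.

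When the 57 genes were ranked by mean, the replicate values of 46 of 56 neighbouring pairs overlapped in RPF and 43 of 56 in mRNA. Snrpg was first in both assays, at 1306 and 1409 FPKM of mRNA and 4147 and 5369 FPKM of RPF, and its range overlapped that of no other gene of the set. Snrpe was the next in both, though its RPF range overlapped that of Snrpf. Srsf4 was the lowest gene with a signal in RPF, at 21.4 and 25.6 FPKM, which rest on 14.7 and 16 footprints. The Spearman correlation of RPF with mRNA was 0.778 over the 57 genes and 0.811 over all genes tested. Within groups it was 0.951 over the 12 snRNP genes, 0.801 over 21 hnRNP, 0.671 over 12 SR and 0.633 over 9 SF3 genes.

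The second comparison asks which genes had more or fewer RPF than their mRNA level would give for a typical gene. The RPF to mRNA difference was fitted by limma on log2(FPKM+1) and centred on the median of all 8327 genes, a shift of 1.26, so that 0 is the typical gene. As deposited, both RPF values lay above both mRNA values in 56 of the 57 genes, all but Sf3a3. The median gene tested also had more RPF than mRNA, by that shift of 1.26. The share of all genes with no overlap was not counted, so the count is no trait of the set. FPKM is scaled within each assay, which is why the difference was centred. A gene passed at a Benjamini-Hochberg adjusted p under 0.05 and a centred difference of at least 1. Of the 57 genes tested, 20 passed as higher. None passed as lower in limma, where 2 of the 5 genes below 0, Sf3a3 and Snrpa, had an unadjusted p under 0.05. Over all genes, 9.13% passed as higher and 3.24% as lower. By group, 11 of 21 hnRNP genes, 4 of 12 SR, 2 of 12 snRNP, 1 of 9 SF3 and 2 of 3 U2AF genes passed as higher. The group medians of the centred log2 difference were 1.66 for hnRNP, 0.98 for SR, 0.47 for snRNP, 0.25 for SF3 and 2.06 for U2AF genes. Without Ribo-seq replicate 2 the SF3 median was -0.0065. These are descriptions over genes, and differences between the groups carry no test. In all, 52 of the 57 genes had a difference above 0, where the median gene sits by construction. In limma, 42 of the 57 and 2986 of all 8327 genes had an unadjusted p under 0.05. A fit with a library left out has a lone library in that assay, which is assumed to vary like the other assay's pair, so the spread then comes from the other assay. With either RNA-seq replicate left out, 0 genes passed in limma in the set or among all genes, although 22 and 21 of the 57, and 1337 and 1269 of all genes, had an unadjusted p under 0.05. With Ribo-seq replicate 1 or 2 left out, 28 and 25 passed as higher and 1 as lower in each, Sf3a3 and Snrpa, while calls rose among all genes too, to 1486 and 1352 higher and 1601 and 1403 lower. Without centring, 53 of the 57 and 4113 of all genes passed as higher, and 0 and 65 as lower. The centred differences of the 20 genes were 1.30 or more in each fit with a library left out.

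**Figure D2:**
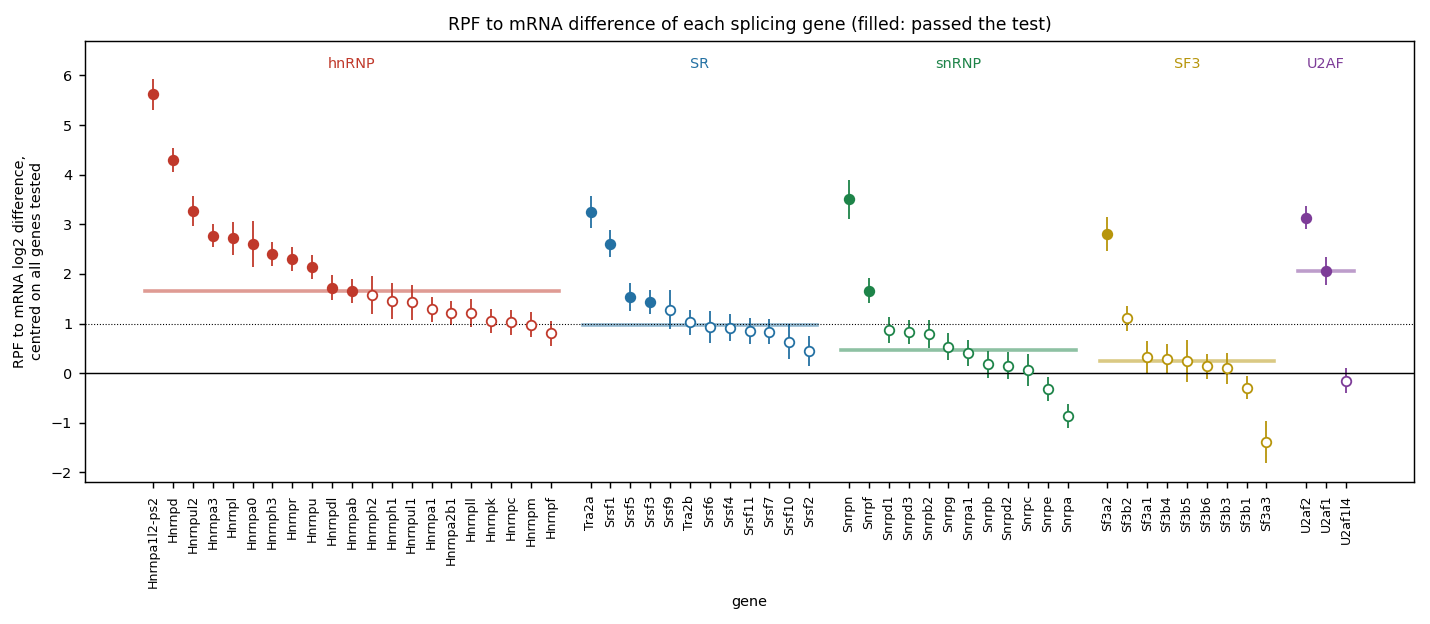
Centred RPF to mRNA log2 difference (y axis) of each of 57 splicing genes (x axis, by group), with its standard error from limma as a bar; filled points passed the test and thick lines are group medians. The hnRNP median lies at 1.66 and the SF3 median at 0.25, and 0 marks the median of all genes tested.

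The hnRNP A/B proteins belong to the core particles that package nascent transcripts, and their genes held very different mRNA levels. Hnrnpa2b1, whose product binds nascent RNA and helps to sort some transcripts, had 242 and 250 FPKM of mRNA and 1414 and 1329 FPKM of RPF. Hnrnpa1, a repressor of many exons, had 211 and 207 of mRNA and 1131 and 1329 of RPF. For both, every RPF value lay above every mRNA value, as in 56 of the 57 genes. Their centred differences of 1.21 (SE 0.24) and 1.28 (SE 0.25) missed the threshold, with limma adjusted p of 0.051 and 0.0508. Hnrnpa3 had far less mRNA, 13.5 and 13 FPKM, but 235 and 229 FPKM of RPF. Its difference of 2.77 (SE 0.23, limma adjusted p = 0.0176) passed. Hnrnpa0, a single-exon gene, had 13.2 and 10.7 of mRNA and 275 and 127 of RPF. It passed at 2.60 (SE 0.47, limma adjusted p = 0.0453), although its Ribo-seq replicates differed 2.17-fold, the widest gap in the set. Hnrnpab, placed here by its name only, passed at 1.66 (SE 0.24), from 108 and 109 FPKM of mRNA to 866 and 786 FPKM of RPF.

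The highest difference of the 57 splicing genes belonged to Hnrnpa1l2-ps2, a row named as a pseudogene. It had 3.08 and 1.82 FPKM of mRNA and 369 and 429 FPKM of RPF, a centred difference of 5.62 (SE 0.31, limma adjusted p = 0.0105). Under its older symbol, Gm5803, it is a pseudogene at chr15:22643623-22644585 on the minus strand in GENCODE vM1 on NCBIM37, the assembly of mm9. It aligned with the coding sequence of Hnrnpa1 over 963 bases, of which 941 were the same, or 97.7%. A stretch of 60 bases from coding position 23 shows the likeness, with the 4 bases that differ in capitals. The Hnrnpa1 stretch lies at chr15:103071518-103071577 on the plus strand and that of the copy at chr15:22644504-22644563 on the minus strand.
Hnrnpa1: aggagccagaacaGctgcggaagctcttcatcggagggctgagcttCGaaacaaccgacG
Hnrnpa1l2-ps2: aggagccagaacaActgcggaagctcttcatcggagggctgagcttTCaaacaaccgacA
Ribo-seq reads are short, so Hnrnpa1 was read in windows of 28 bases. Of its 1095 windows, 451 occurred unchanged in the copy, and 871 occurred there with at most 2 mismatches, the number the authors allowed in mapping Ribo-seq. How many of the RPF fragments listed for the copy came from Hnrnpa1 was not tested. Without this row, the hnRNP median of the centred difference was 1.62, and the median mRNA level was 32.6 in place of 24.9 FPKM, the mean of the replicate medians.

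Other related hnRNP genes also differed from each other. Hnrnpd, whose product AUF1 binds AU-rich elements of unstable mRNAs, had 8.29 and 8.89 FPKM of mRNA and 483 and 422 FPKM of RPF. Its difference was 4.30 (SE 0.25, limma adjusted p = 0.0114), an RPF to mRNA ratio 19.7 times that of the median gene on the log2(FPKM+1) scale, and 2.88% of its windows occurred outside the gene. Its relative Hnrnpdl had more mRNA, 38.6 and 43.9 FPKM, less RPF, 353 and 313 FPKM, and a difference of 1.72 (SE 0.25). Hnrnpl, which binds CA repeats, had 19.3 and 30.5 of mRNA and 409 and 385 of RPF, a difference of 2.71 (SE 0.32). Its relative Hnrnpll, a regulator of CD45 splicing in lymphocytes, had 7.28 and 5.02 of mRNA and 36.8 and 39.3 of RPF, and did not pass at 1.21 (SE 0.29). Hnrnpu, also known as scaffold attachment factor A, had 48.1 and 47 of mRNA and 484 and 543 of RPF, a difference of 2.14 (SE 0.24). Hnrnpul2 had 2.71 and 4.41 of mRNA and 100 and 103 of RPF, a difference of 3.26 (SE 0.30), while Hnrnpul1 had 5.65 and 4.91 of mRNA and 51.2 and 30.5 of RPF and did not pass at 1.43 (SE 0.35). In each of these related pairs, the RPF values of the partners did not overlap. Hnrnpr passed at 2.30 (SE 0.24), from 4.27 and 3.77 FPKM of mRNA to 59 and 57.7 FPKM of RPF.

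The hnRNP F/H family binds G-rich sequence. Hnrnph3 had 8.79 and 9.65 FPKM of mRNA and 131 and 126 FPKM of RPF, and passed at 2.40 (SE 0.24). Hnrnph1 had 36.7 and 58.3 of mRNA and 355 and 268 of RPF, and Hnrnph2 had 14.2 and 9.14 of mRNA and 70.3 and 110 of RPF. Neither passed, at 1.45 (SE 0.36) and 1.58 (SE 0.38), and their replicates differed by more than those of Hnrnph3 in both assays. Hnrnpf had 133 and 112 of mRNA and 555 and 476 of RPF and the lowest difference of the hnRNPs, 0.80 (SE 0.26). Of the 1323 windows of Hnrnph2, 74.2% also occurred outside its gene, but only 16 were common with Hnrnph1. Hnrnph1 and Hnrnph2 are close paralogs. Their longest common stretch of coding sequence, shown to mark where short reads cannot tell them apart, was 34 bases. It crosses an exon junction between 50196796 and 50197194 on the plus strand of chromosome 11 in Hnrnph1 and lies unbroken at chrX:131140483-131140516 on the plus strand in Hnrnph2.
Hnrnph1 and Hnrnph2: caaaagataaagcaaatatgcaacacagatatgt
The other hnRNPs lay close to the threshold of 1 and did not pass. Hnrnpk, a poly(C)-binding protein, had 245 and 222 of mRNA and 1132 and 1194 of RPF, Hnrnpc, which binds uridine tracts, had 208 and 179 of mRNA and 977 and 907 of RPF, and Hnrnpm had 39.9 and 48.2 of mRNA and 211 and 210 of RPF. Their centred differences were 1.05, 1.02 and 0.98.

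Of the SR proteins, Tra2a and Srsf1 had the largest differences. Tra2a, whose product binds GA-rich enhancers, had 16.6 and 14.1 FPKM of mRNA and 454 and 302 FPKM of RPF, a difference of 3.25 (SE 0.32, limma adjusted p = 0.0213). Its paralog Tra2b had more mRNA, 81.5 and 94.8 FPKM, and RPF within the range of Tra2a, 416 and 449 FPKM, and did not pass at 1.02 (SE 0.25). Tra2a and Tra2b thus did not overlap in mRNA and overlapped in RPF. Srsf1, the prototype SR protein, had 25.5 and 34 of mRNA and 464 and 425 of RPF, a difference of 2.61 (SE 0.28). Srsf3, the smallest SR protein, had 145 and 156 of mRNA and 976 and 987 of RPF, the highest RPF level of the group, and passed at 1.44 (SE 0.24), but not with RPF per full coding length, which is described with the Sm genes. Srsf5 had 66.6 and 89.4 of mRNA and 535 and 547 of RPF and passed at 1.53 (SE 0.28).

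The remaining SR genes had differences between 0.45 and 1.28 and did not pass. Srsf2, which like other SR genes can regulate its own mRNA through alternative exons that lead to decay, had 98.3 and 111 of mRNA and 291 and 405 of RPF, and the lowest difference of the group, 0.45 (SE 0.29). Srsf7, a relative of Srsf3, had 92.1 and 106 of mRNA and 440 and 411 of RPF. Srsf6 had 31.8 and 41.8 of mRNA and 201 and 144 of RPF, and Srsf4 had 3.93 and 4.88 of mRNA and the low RPF level given above. For all these SR genes, both RPF values lay above both mRNA values, as in 56 of the 57 genes of the set. Srsf11 had 19.6 and 15.6 of mRNA and 81.9 and 75.2 of RPF. Srsf10, which can act as a repressor, had 41.5 and 34.6 of mRNA and 113 and 183 of RPF. Srsf9 had 13.3 and 14 of mRNA and 114 and 62 of RPF, a replicate gap of 1.85-fold on 28.6 and 14.1 footprints. Srsf12 was listed at 0 in all 4 libraries and was not tested. A count of 0 allows up to 9.36 and 10.3 FPKM of RPF in the 2 Ribo-seq replicates, at 3 footprints.

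The snRNP genes combined the highest levels with differences near the typical gene. The Sm proteins form a ring of 7 on the U1, U2, U4 and U5 RNAs, with each protein present once. Snrpg and Snrpe had the highest mRNA, the former as given above and the latter 1151 and 1183 FPKM with 2415 and 2084 FPKM of RPF. Snrpf had 284 and 305 of mRNA and 2405 and 2082 of RPF, so that its RPF overlapped that of Snrpe while its mRNA was far lower. Snrpd3 had 363 and 365 of mRNA and 1528 and 1579 of RPF, and Snrpd2 had 472 and 542 of mRNA and 1205 and 1512 of RPF. Snrpd1 had 153 and 185 of mRNA and 763 and 716 of RPF, and Snrpb had 151 and 193 of mRNA and 490 and 441 of RPF. Of these, only Snrpf passed, at 1.66 (SE 0.25, limma adjusted p = 0.0339).

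The Sm coding sequences are short, and the deposited RPF levels depend on this. Cufflinks divides fragments by an effective length, which falls below the full length most for short sequences. Low RPF values were near whole fragments in 77.7% and 76.4% of cases with the effective length but in 34.7% and 33.7% with the full coding length, where an even spread gives 20%. Each library total was chosen to give a high share, for either length, so the fit alone can lift a share above 20%. For coding sequences under 600 bases, 55.3% and 56.5% were near with the effective length and 14.8% and 18.5% with the full length. For Snrpg, with a coding sequence of 231 bases, the deposited RPF level was 3.06 times that per full coding length, and for Sf3b1, with 3915 bases, it was 1.05 times. Per full coding length, the RPF levels of the Sm ring ran from 348 to 1355 FPKM in replicate 1 and from 314 to 1754 FPKM in replicate 2. The highest was then 3.90 and 5.58 times the lowest, whereas it was 8.47 and 12.2 times as deposited. The mRNA of the ring spanned 8.64-fold and 7.62-fold. Snrpg was the highest in RPF on both scales and Snrpb had the lowest mean, which per full coding length Snrpd1 nearly matched. With RPF rescaled in this way and mRNA as deposited, the snRNP median difference was 0.0044 in place of 0.47, Snrpf did not pass at 0.43, and Snrpe passed as lower at -1.48. The hnRNP, SR and SF3 medians were 1.64, 0.96 and 0.31 on that scale, and 19 of 56 genes passed as higher and 1 as lower, beside 701 and 345 of all 8153 genes with a coding length. Srsf3 did not pass at 0.98, and Hnrnpa1 and Sf3b2 passed at 1.29 and 1.28. Cufflinks also computed the mRNA levels, over transcripts that can be short too, 393 bases for Snrpg and 503 for Snrpe. The mRNA levels were not rescaled, so the rescaled differences change the RPF side only, and the length effect on mRNA was not tested.

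**Figure D3:**
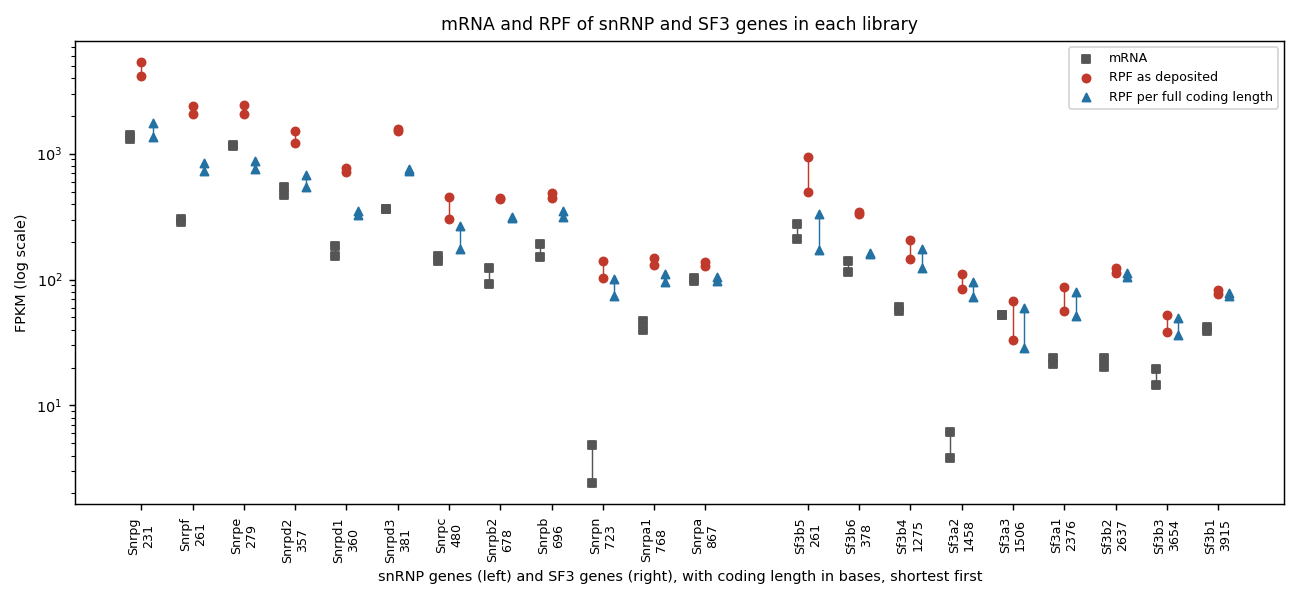
FPKM (y axis, log scale) of the 12 snRNP and 9 SF3 genes in each library, ordered by coding length in bases (x axis); squares are mRNA, circles RPF as deposited and triangles RPF per full coding length, with a line joining the 2 replicates. The triangles fall farthest below the circles for the shortest sequences, 3.06-fold for Snrpg and 1.05-fold for Sf3b1.

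Among the snRNP-specific proteins, Snrpa and Snrpc belong to U1. Snrpa had 103 and 96.9 FPKM of mRNA and 127 and 137 FPKM of RPF, the lowest difference of the group at -0.86 (SE 0.24, limma adjusted p = 0.0891). Snrpc had 141 and 154 of mRNA and 302 and 455 of RPF, a difference of 0.06 (SE 0.31). Snrpa1 and Snrpb2, the partners on U2, had 39.8 and 46.8 against 124 and 91.4 of mRNA, and 149 and 130 against 447 and 439 of RPF. Snrpb2 thus stood above Snrpa1 in every library, 3.12-fold and 1.95-fold in mRNA and 3.0-fold and 3.39-fold in RPF.

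Snrpn is an imprinted, mostly neuronal paralog of Snrpb. It had 4.85 and 2.41 FPKM of mRNA and 140 and 103 FPKM of RPF, and passed at 3.50 (SE 0.39, limma adjusted p = 0.0238). These RPF levels rest on 39.1 and 26.1 footprints. Snrpn is read from the same bicistronic transcript as Snurf, which was looked up after the values were seen. Snurf had 84.7 and 76.4 FPKM of mRNA and 900 and 1818 FPKM of RPF, and also passed as higher, at 2.71 (SE 0.43, limma adjusted p = 0.0385). How the mRNA fragments were divided between both rows was not tested. The longest coding stretch that Snrpn had in common with Snrpb, shown as the limit of what a short read can tell apart, was 32 bases. It spans an exon junction in each gene, between 130001169 and 130002773 on the minus strand of chromosome 2 for Snrpb and between 67131761 and 67132320 on the minus strand of chromosome 7 for Snrpn.
Snrpb and Snrpn: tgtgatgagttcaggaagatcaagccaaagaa
Only 5 windows of 28 bases were common to both genes. Of all Snrpn windows, however, 36.1% also occurred outside its gene, and their part in its RPF level was not tested. Without Snrpn, the snRNP median difference was 0.40.

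The SF3 genes had the lowest group median as deposited, though not per full coding length, and their differences ran from -1.39 to 2.80. In SF3a, Sf3a2 had 3.82 and 6.12 FPKM of mRNA and 112 and 83.7 FPKM of RPF, and passed at 2.80 (SE 0.34, limma adjusted p = 0.0257). Sf3a3 had much more mRNA, 51.9 and 52.3 FPKM, and less RPF, 68.1 and 33.2 FPKM. Its difference of -1.39 (SE 0.43) was the lowest of the set but missed the threshold, with an adjusted p of 0.107 in limma, and its Ribo-seq replicates differed 2.05-fold on 47.5 and 21 footprints. Sf3a1 had 23.9 and 21.2 of mRNA and 55.9 and 87.2 of RPF. The subunits of this trimer spanned 13.6-fold and 8.55-fold in mRNA but 2.0-fold and 2.63-fold in RPF. Sf3a3 was the highest in mRNA and the lowest in mean RPF, and Sf3a2 the lowest in mRNA and the highest in mean RPF, although Sf3a1 was the lowest in Ribo-seq replicate 1 and the highest in replicate 2.

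In SF3b, the range stayed wide in both assays. Sf3b5, a small subunit, had 208 and 278 FPKM of mRNA and 498 and 945 FPKM of RPF, on 24.1 and 41.6 footprints. Sf3b6, which contacts the branch point adenosine, had 139 and 116 of mRNA and 332 and 343 of RPF. Sf3b4 had 56.8 and 60.1 of mRNA and 206 and 146 of RPF. These 3 subunits had the highest levels of the complex in both assays, as ranked by mean. Sf3b1, the HEAT-repeat subunit around the branch site, had 41.8 and 39.2 of mRNA and 83 and 77.4 of RPF, a difference of -0.29 (SE 0.24). Its partner Sf3b3 had 14.6 and 19.4 of mRNA and 52.5 and 38.2 of RPF. Sf3b2 had 20.3 and 24 of mRNA and 114 and 123 of RPF, the highest difference of the complex at 1.11 (SE 0.25), which did not pass. The 6 subunits spanned 14.3-fold and 14.4-fold in mRNA, and 9.48-fold and 24.7-fold in RPF. Per full coding length the RPF span was 3.49-fold and 9.12-fold, with Sf3b3 the lowest by mean and Sf3b5 the highest by mean on both scales. The grouping of subunits into complexes for these spans was made after the values were seen.

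U2AF is a pair of a large subunit, U2af2, which binds the pyrimidine tract, and a small subunit, U2af1, which reads the AG at the 3′ splice site. U2af2 had 9 and 8.61 FPKM of mRNA and 211 and 200 FPKM of RPF, a difference of 3.14 (SE 0.24, limma adjusted p = 0.0148). U2af1 had 42.8 and 54.7 of mRNA and 450 and 543 of RPF, a difference of 2.06 (SE 0.28). Both passed, and the gap between them was 4.76-fold and 6.35-fold in mRNA but 2.13-fold and 2.71-fold in RPF. U2af1l4, a paralog of the small subunit, had 48.3 and 40.2 of mRNA, close to that of U2af1, but 97.6 and 94.2 of RPF. Its difference was -0.16 (SE 0.25). U2af1 and its paralog thus overlapped in mRNA and did not overlap in RPF.

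Across the set, the difference was larger where mRNA was low. The Spearman correlation of the difference with the mRNA level was -0.554 over the 57 genes and 0.0076 over all genes tested, a description of quantities that have the mRNA level in common. Of 18 genes with a mean under 20 FPKM of mRNA, 11 passed as higher, and 9 of the 39 others did. The shares among all genes tested were 8.50% under 20 FPKM and 10.7% from 20 FPKM up. Hnrnpll, Hnrnpul1, Hnrnph2, Srsf4, Srsf9, Srsf11 and Sf3b3 were the genes under 20 FPKM that did not pass.

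Many splicing genes have processed copies, intronless stretches made by reverse transcription of an mRNA, elsewhere in the genome. A genome stretch that held at least 20% of a gene's 28-base windows was counted as a copy, whether or not it lacked introns. Of the 57 genes with a coding sequence, 24 had such a copy. They were 9 hnRNP, 4 SR, 8 snRNP, 1 SF3 and 2 U2AF genes. Copies of genes outside the set were not counted, so no share over all genes can be given. Hnrnpa3 had 31 copies, and 58.0% of its windows occurred at more than 20 places, the limit of the authors' mapping. Hnrnpa1 had 9 copies and Hnrnpf 6, and all windows of Snrpg occurred outside the gene. The windows across exon junctions show intronless copies most directly, since they are unbroken in the genome only where an intron is missing. Hnrnpa2b1, counted with 1 copy, had 0 of its 9 junction windows unbroken in the genome. The most repeated junction window of 6 genes is given here, upstream exon in lower case and downstream exon in capitals.
Hnrnpa3: tgataaaattgttgTTCAGAAATACCAC
Hnrnpa1: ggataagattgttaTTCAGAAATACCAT
Snrpd2: aaggcctttgacagGCACTGCAACATGG
U2af1: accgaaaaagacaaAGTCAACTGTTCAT
Srsf3: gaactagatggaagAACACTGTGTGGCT
Tra2b: aggtctgaatctagGTCTAGATCCAGAA
The Hnrnpa3 window joins base 75500163 to base 75500544 on the plus strand of chromosome 2 and occurred unbroken at 25 places. The Hnrnpa1 window joins 103072544 to 103072637 on the plus strand of chromosome 15 and occurred at 11 places. The Snrpd2 window joins 19736746 to 19737825 on the plus strand of chromosome 7 and occurred at 4 places. The windows of U2af1 (31795598 to 31792011, minus strand of chromosome 17), Srsf3 (29173393 to 29175435, plus strand of chromosome 17) and Tra2b (22255057 to 22254643, minus strand of chromosome 16) occurred at 3 places each.

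The share of windows found outside the gene did not order the genes by their RPF to mRNA difference. Its Spearman correlation with the difference was -0.0082 over the 56 genes with a coding sequence and a signal. This leaves out Hnrnpa1l2-ps2, which had the highest difference of the set and no annotated coding sequence. Hnrnpd, Tra2a, Srsf1, Hnrnpu and Hnrnpul2 passed with at most 2.88% of windows outside the gene. Hnrnpa3, Srsf3, U2af1, Snrpf, Srsf5 and U2af2 passed with 97.8%, 94.9%, 94.2%, 83.3%, 71.6% and 67.3%. Hnrnpf, Snrpg and Sf3b4, with 98%, 100% and 84.9%, did not pass. The part of repeated windows in these values was not tested. For the genes whose windows mostly occurred at a single place or none, the median difference was 1.93 over 14 hnRNP, 0.92 over 8 SR, 0.81 over 6 snRNP and 0.19 over 8 SF3 genes. The order of the 4 groups was that found with all members.

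**Figure D4:**
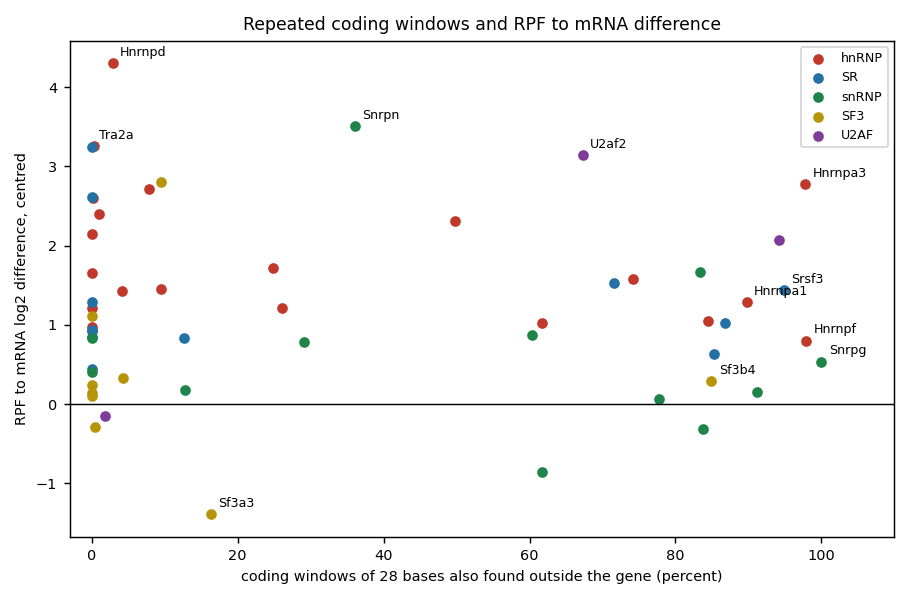
Centred RPF to mRNA log2 difference (y axis) against the percent of 28-base coding windows that also occurred outside the gene (x axis), one point for each of 56 splicing genes coloured by group. High differences occur at both ends of the x axis, from Hnrnpd at 2.88% to Hnrnpa3 at 97.8%.

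An annotated gene on the opposite strand overlaps 8 of the genes: Hnrnpab, Hnrnpd, Hnrnph3, Snrpf, Srsf1, Srsf2, Srsf4 and U2af1l4. The sources used here do not state whether counting was strand-specific. Whether reads on the overlapping bases were told apart is therefore not known, and the part of the overlaps in the values was not tested.

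Other genes of the splicing machinery were read from a list of 95, of which 89 were tested. Of these, 21 passed as higher and 3 as lower, and the median difference was 0.42. Over all 8327 genes tested, 9.13% passed as higher and 3.24% as lower. The single lists are short, so counts of 0 or 1 in them cannot be told from these shares. Other RNA-binding regulators of splicing had 11 of 20 passing as higher and a median of 1.74, near the hnRNP median. U2 and branch point partners had 2 of 7 and a median of 1.20. LSm proteins, which form the ring on U6, had 1 of 8 and a median of 0.62. SMN complex genes, which load Sm rings, had 0 of 11 in either direction in limma, 2 with an unadjusted p under 0.05, and a median of 0.31. Proteins of the Prp19 complex and the catalytic steps had 3 of 15 and a median of 0.27. Other U snRNP and tri-snRNP proteins had 3 of 16 passing as higher, 1 as lower and a median of 0.18. SR kinases and SR-related proteins had the only negative median, -0.81, with 1 of 12 passing as higher and 2 as lower.

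The genes at the ends of this list were named by rule. At the high end, Taf15, an RNA-binding protein, had 3.35 and 4.79 FPKM of mRNA and 192 and 155 FPKM of RPF, and passed at 3.85 (SE 0.30). Raly, an hnRNP C relative, had 16.9 and 4.56 of mRNA and 212 and 195 of RPF, and did not pass at 3.09 (SE 0.64). At the low end, Son, a large SR-related protein of nuclear speckles, had 13.8 and 17.3 of mRNA and 7.33 and 8.66 of RPF, and passed as lower at -2.14 (SE 0.27). Clk2, a kinase of SR proteins, had 2.07 and 3.65 of mRNA and 0.0069 and 3.17 of RPF, and Gemin7, of the SMN complex, had 47.4 and 52.2 of mRNA and 80.3 and 11.1 of RPF. Neither of the last pair passed, at -2.14 (SE 0.79) and -1.96 (SE 1.00), and their Ribo-seq replicates were far apart.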

How the data were processed

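RNA-seq (Smart-seq2) and Ribo-seq (Ribo-lite, with cycloheximide and RNase I) of mouse blastocysts, with 2 replicate libraries each, were analysed. The authors deposited FPKM per gene. For RNA-seq they trimmed reads with Trim Galore (0.4.2), mapped them with STAR (2.5.3a) to the mm9 transcriptome with at most 20 places per read, and ran Cufflinks (2.2.1). For Ribo-seq they trimmed with cutadapt (1.14), removed rRNA reads with Bowtie2 (2.2.2), mapped end to end with at most 2 mismatches, and ran Cufflinks on coding sequences.

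Genes were taken by name, and the members and gene lists were chosen with earlier results of these data known. All members could be named, and of the other splicing genes the 3 highest and 3 lowest, of which 1 is not reported here. The highest value was used for symbols with several entries. Levels were log2(FPKM+1), with genes filtered at a mean of at least 1 FPKM in both assays, and RPF was compared with mRNA over all 4 libraries by limma (3.58.1, R 4.3.3), centred on the median of all 8327 genes. The pseudocount makes differences of weakly expressed genes too small. The depth of Ribo-seq came from steps of low FPKM, with the default fragment lengths of Cufflinks (mean 200, SD 80 bases). Values within 0.1 of a whole fragment counted as near. Footprints of genes with several coding sequences are approximate, and counting errors cover counting only. Coding lengths, positions and windows of 28 bases came from GENCODE vM1 on NCBIM37. All 58 symbols matched, 4 by an older symbol, and 57 had a coding sequence. Windows were exact matches on either strand of the genome, whereas the authors mapped to the transcriptome. Protein features were not analysed here. The steps were tested on simulated data. Python 3.11.15, numpy 2.4.6, pandas 2.3.3 and numba 0.67.0 were used. Alternatives were the pseudocount, the filter, the normalization, the centring, the variance prior, duplicate symbols, the length, the replicate block and each replicate left out. Leaving out the pseudogene row or Snrpn, and repeating the fit without rescaling for genes with a coding length, were added after the data were seen.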

Additional observations from a re-analysis of the deposited data

How the results depend on the processing

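The 20 genes passing as higher and 0 as lower, and 760 and 270 of all genes, moved with several choices. With a pseudocount of 0.1 they were 13 and 0 in the set and 413 and 130 of all 8327 genes. With no filter, 39 of the set passed as higher, and 1997 and 1136 of the 13402 genes then tested passed as higher and lower. With no centring, 53 of the set passed as higher, and 4113 and 65 of all 8327 genes as higher and lower. With a filter at 5 FPKM, 515 of the 5083 genes then tested passed as lower, and with a variance prior by level 477 of all 8327 did. With each replicate left out, the set gave 0 to 28 higher and 0 to 1 lower, and all genes 0 to 1486 higher and 0 to 1601 lower. With RPF per full coding length, 1 gene of the set, Snrpe, passed as lower. Of the 20 genes, 13 were kept with the pseudocount of 0.1, and 17 of the 19 with a coding length were kept with RPF per full coding length. Quantile normalization, the trimmed mean and summed duplicates kept all 20. The labels pair no libraries, and the deviations of same-numbered libraries had a correlation of 0.0099 over genes. With the replicate number as a block, 0 of the set passed as higher, and 27 higher and 1 lower of all genes, where limma gave 34 of the 57 and 2520 of all 8327 genes an unadjusted p under 0.05; the block changed no difference.

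The group medians of the difference were 2.92, 2.24, 1.73 and 1.51 for hnRNP, SR, snRNP and SF3 with no centring, and 1.40, 0.90 and 0.67 for the last 3 groups with no filter. With replicates left out they ran from 1.61 to 1.76, 0.94 to 1.11, 0.30 to 0.53 and -0.0065 to 0.28, so the sign of the SF3 median rests on Ribo-seq replicate 2. For genes with mostly single-place windows, the SR and snRNP medians were 0.92 and 0.81. With RPF per full coding length, the snRNP median was 0.0044. The median RPF levels were then 274, 269 and 334 FPKM for hnRNP, SR and snRNP, and with single-place windows 276, 234 and 454, where the values as deposited were 334, 296 and 606. Both alternatives left out Srsf12 and the pseudogene row, which the deposited values include. With single-place windows the median mRNA was 23.7, 138 and 32.2 FPKM for SR, snRNP and SF3, in place of 33.2, 171 and 40.5. Without Srsf12, the SR medians were 353 FPKM of RPF and 37.4 of mRNA, and without Snrpn the snRNP RPF median was 740 FPKM. With the coding length in place of the effective length, 34.7% and 33.7% of low RPF values were near whole fragments, in place of 77.7% and 76.4%.

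No gene that passed changed sign under any alternative run. Those near 0 did: Sf3b1 was at 0.13 with no filter and 0.97 with no centring, Snrpe at 0.11 and 0.94, and U2af1l4 at 0.27 and 1.10, and Snrpa was at 0.40 with no centring. Snrpc was at -0.064 with a pseudocount of 0.1 and -0.00023 with the filter at 5 FPKM. With RPF per full coding length, Sf3b5 was at -0.98, Sf3b6 at -0.63, Snrpb at -0.020, Snrpc at -0.42, Snrpd2 at -0.70 and Snrpg at -0.79. With each replicate left out in turn, the values ran from -0.11 to 0.62 for Sf3a1, -0.15 to 0.28 for Sf3b3, -0.34 to 0.68 for Sf3b5, -0.0065 to 0.27 for Sf3b6, -0.35 to 0.33 for Snrpc and -0.13 to 0.29 for Snrpd2. The causes of these changes were not tested. The Ribo-seq depth limits genes with few footprints, such as Srsf4 and Srsf9.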
